A study of Homo sapiens with 27 samples.

Results

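A set of 10 human genes of retinoic acid synthesis and breakdown were followed in cultures of H1, an established human embryonic stem cell line, during differentiation towards photoreceptor progenitors. The genes were chosen by name, as the rows of the gene table whose Ensembl identifier maps to RBP4, STRA6, RDH10, ALDH1A1, ALDH1A2, ALDH1A3, CRABP1, CYP26A1, CYP26B1 or CYP26C1. All 10 were found among 44852 genes, and all 10 passed the filter on low counts (more than 1 count summed over the libraries fitted) in every comparison.

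Bulk RNA-seq was available for 27 libraries, in 9 groups of 3 replicates: cells on 3 laminin matrices (named here LN523, LN323 and LN521) at days 2, 22 and 32. The sample titles number these days 0, 20 and 30. Laminins are trimeric proteins of the basement membrane. The coating labels give LN523 with LN323, LN323 alone and LN521 with LN323, whereas the study's methods describe LN521 mixed into the other coatings, so the 3 matrices are called by their leading isoform. Day 2 cells were in stem cell maintenance medium. From then on every culture received the kinase inhibitors CKI-7 and SB431542 to induce neuroectoderm, and later a photoreceptor medium with B27 without vitamin A, N2, BDNF, CNTF, the Notch pathway inhibitor DAPT and 0.5 uM retinoic acid. That medium starts on day 7 in the labels and on day 9 in the study's methods. All day 22 and day 32 groups therefore shared added retinoic acid, and no differentiated group without it was measured. Each replicate of a group was on its own sequencing lane, and replicates 1, 2 and 3 were on lanes 1, 2 and 3. The labels do not say whether replicates came from separate cultures, so the spread between these libraries may be technical. The p-values and standard errors come from a fit that shares this spread in part across genes, and do not measure it gene by gene.

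Retinoic acid is made from vitamin A. Retinol travels in blood bound to RBP4 and enters cells through the receptor STRA6, RDH10 oxidizes it to retinaldehyde, and the ALDH1A enzymes oxidize retinaldehyde to retinoic acid, which the CYP26 enzymes then degrade. In the developing retina ALDH1A1 is typical of the dorsal side, ALDH1A3 of the ventral side, and CYP26 enzymes of a stripe between them that is kept low in retinoic acid.

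Total counts per library were 25620624 to 47340990 (median 39862487), and levels are given as CPM, counts scaled by library size and TMM factors. The summed CPM of 6 pluripotency genes was 5187 to 8737 at day 2 and 8.66 to 55.6 at day 32, and that of 6 neural retina progenitor genes was 3.56 to 6.91 at day 2 and 935 to 2204 at day 32. Photoreceptor markers did not follow the label as a sum, with 71.6 to 171 CPM at day 2 (nearly all from OTX2, at 69.2 to 170 CPM) and 19.7 to 216 at day 32, and recoverin, RCVRN, a photoreceptor calcium sensor, was at most 0.0608 CPM at day 2 and between 0.0957 and 4.48 CPM at day 32. Replicate 1 on LN521 had the highest summed forebrain markers of its day (69.7 CPM at day 22 and 53.7 at day 32, against medians of 14.9 and 16.1). Its summed pluripotency genes were also the highest of each day (381 and 55.6 CPM, against medians of 63.7 and 16.4). Replicate 2 on LN323 and LN523 had the highest summed mesenchyme markers at day 32 (7628 and 4919 CPM, against a median of 2494).

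The first question was how the members changed from day 2 to day 22. Over this step summed pigment epithelium markers also went from a median of 186 to 1571 CPM and summed mesenchyme markers from 486 to 1814. The largest parts at day 22 were PMEL (median 140 to 966 CPM) and COL1A2 (237 to 1439 CPM). DCT, TYRP1, MITF and PDGFRA had higher medians as well, whereas RPE65 was at most 0.428 CPM at day 22 and the COL1A1 median went from 217 to 246 CPM. By day 22, 6 of the 10 genes had risen on all 3 matrices: ALDH1A1, ALDH1A3, RDH10, STRA6, CRABP1 and CYP26B1. ALDH1A2 and CYP26A1 passed the test on LN523 and LN323 only, and CYP26C1 and RBP4 passed on none. ALDH1A1 had the largest fold changes of the 10. Every call was upward. The calls come from edgeR's quasi-likelihood test with the lane as a block and a Benjamini-Hochberg adjusted p below 0.05 over all genes tested. On LN523, 8 of 10 members were called higher, where 11.5% of the 44852 genes tested were called higher and 10.2% lower. On LN323 8 of 10 were called higher, against a background of 11.8% higher and 10.9% lower, and on LN521 6 of 10, against 10.8% higher and 8.09% lower. The members' median log2 fold change was 2.64 on LN523, 2.95 on LN323 and 2.47 on LN521, where the medians over all genes were 0.02, 0.02 and -0.02. Because the samples are bulk RNA, a change in the number of expressing cells and a change in RNA per cell cannot be told apart in any of these values.

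**Figure D1:**
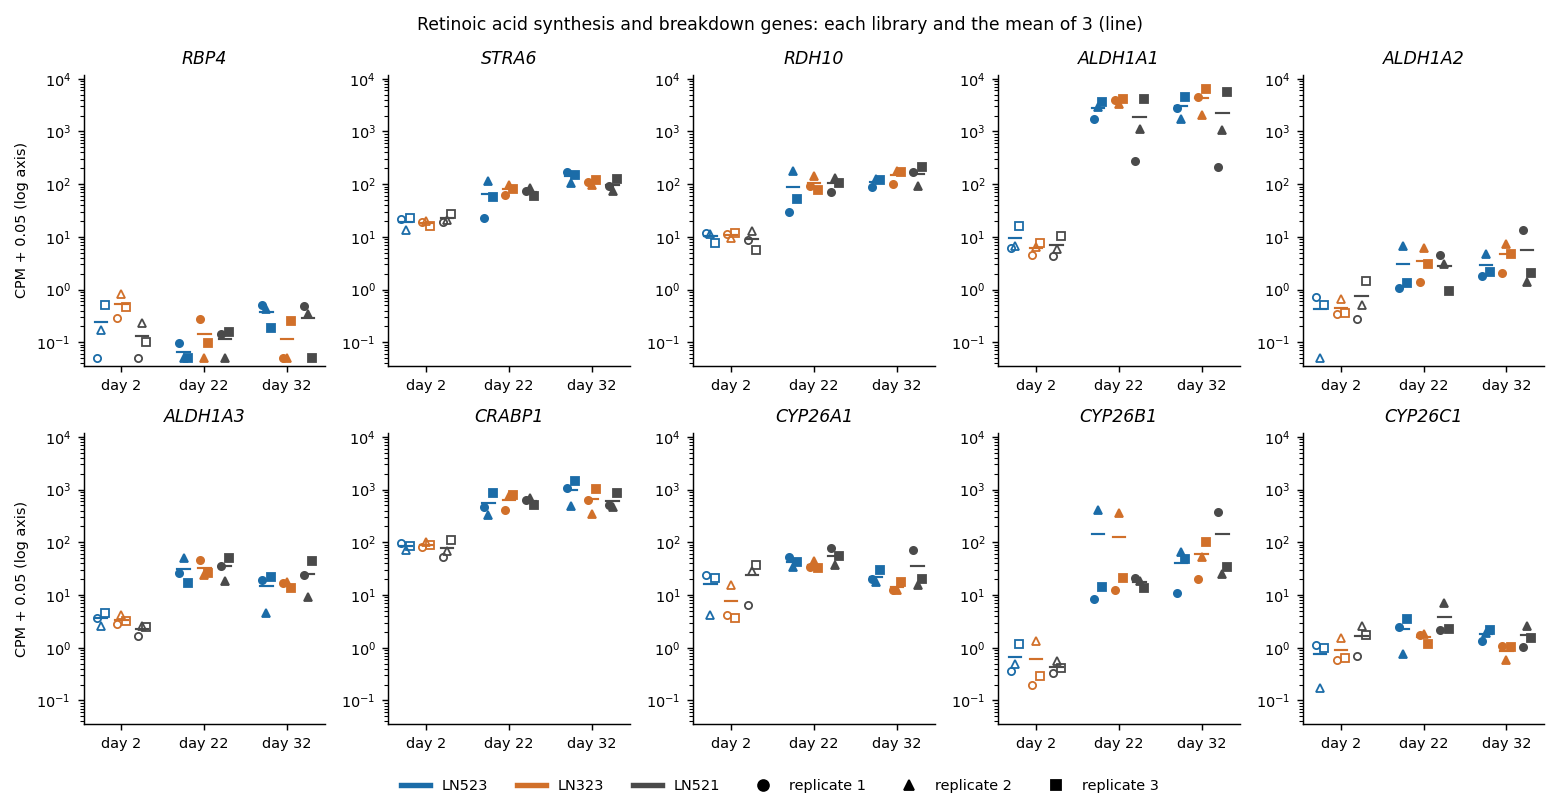
Levels of the 10 genes in all 27 libraries, as CPM plus 0.05 on a log axis, by day; colours are matrices, marker shapes are replicates, open markers are day 2, and horizontal lines are means of 3. ALDH1A1 lay at 15.9 CPM or less in every day 2 library and at 208 CPM or more in every later one, and 3 libraries stand at 352 CPM or more of CYP26B1.

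Retinol supply came first in the pathway and RBP4 was almost absent. RBP4 (chromosome 10 of GRCh38, 93591687 to 93601744, minus strand), the serum carrier of retinol, had 0 to 28 counts per library, and at most 0.77 CPM. It was not called in any time comparison, and at these counts a difference was not detectable. STRA6 (chromosome 15, 74179466 to 74212267, minus strand), the membrane receptor for RBP4-bound retinol, was between 13.1 and 27.0 CPM in the 9 day 2 libraries. At day 22 it was at 22.9, 115 and 56.5 CPM on LN523 (replicates 1, 2 and 3), at 61.8, 94.6 and 82.5 on LN323 and at 73.4, 83.6 and 59.2 on LN521. LN523 replicate 1 thus stayed inside the day 2 range, while the other 8 libraries lay above it. From day 2 the log2 value changed by 1.71 (SE, the standard error, 0.30, adjusted p = 1.09e-05 in edgeR) on LN523, 2.09 (0.30, adjusted p = 1.57e-07) on LN323 and 1.69 (0.30, adjusted p = 1.19e-05) on LN521. Without replicate 2 of day 22 the LN523 value was 1.08 and stayed past the threshold.

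RDH10, the retinol dehydrogenase that makes most embryonic retinaldehyde, was between 5.68 and 12.7 CPM at day 2. At day 22 it was at 30.1, 181 and 51.3 CPM on LN523, at 90.7, 143 and 76.4 on LN323 and at 72.2, 130 and 107 on LN521. All 9 day 22 libraries were above all day 2 libraries, and replicate 2 was the highest of its group on each matrix. The fold change was 7.63 on LN523 (log2 2.93, SE 0.35), 9.05 on LN323 (log2 3.18, 0.35) and 11.4 on LN521 (log2 3.51, 0.35), with adjusted p of 1.33e-09, 1.27e-10 and 1.36e-11 in edgeR. Of RDH10's exonic bases 5.21% lie under exons of an antisense gene, and the strand setting of the counting is not given in the sources used here.

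ALDH1A1 (chromosome 9, 72900671 to 73080442, minus strand), a retinaldehyde dehydrogenase, was between 4.34 and 15.9 CPM at day 2. At day 22 it was at 1706, 2859 and 3659 CPM on LN523 and at 3973, 3263 and 4035 on LN323. On LN521 it was at 272, 1117 and 4170 CPM in replicates 1, 2 and 3. The day 22 libraries did not overlap with day 2 on any matrix, and the replicates on LN521 spread far more than those on the other matrices. The fold change was 312 on LN523 (log2 8.29, SE 0.56), 654 on LN323 (log2 9.35, 0.58) and 209 on LN521 (log2 7.71, 0.54), with adjusted p of 1.53e-17, 8.15e-19 and 1.26e-16 in edgeR. On the length-corrected TPM scale ALDH1A1 rose from a median rank of 10933 among all genes at day 2 to 9 at day 22 and 13 at day 32. Its highest rank was 1, at day 32, and its highest level was 8980 TPM, on LN323 at day 32.

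ALDH1A3 (chromosome 15, 100877714 to 100916626, plus strand), the ventral retinaldehyde dehydrogenase, was between 1.64 and 4.55 CPM at day 2. At day 22 it was at 25.6, 50.7 and 16.9 CPM on LN523, at 45.6, 23.8 and 26.5 on LN323 and at 35.0, 18.4 and 51.0 on LN521. No day 22 library reached down to day 2. The log2 fold change was 3.25 (SE 0.45, adjusted p = 5.91e-08) on LN523, 3.23 (0.44, adjusted p = 5.26e-08) on LN323 and 3.90 (0.46, adjusted p = 1.32e-09) on LN521 in edgeR. An antisense gene, ALDH1A3-AS1, covers 32.1% of the exonic bases of ALDH1A3, so part of these reads could be from it if strand was not used in counting.

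ALDH1A2 (chromosome 15, 57953424 to 58497866, minus strand), the family member of mesoderm and mesenchyme, was the scarcest of the 3, with 0.00 to 1.42 CPM at day 2. At day 22 it was at 1.02, 6.76 and 1.26 CPM on LN523, at 1.37, 6.15 and 3.00 on LN323 and at 4.45, 3.03 and 0.88 on LN521. Replicate 2 was highest on LN523 and LN323, and 4 of the 9 day 22 libraries (replicates 1 and 3 on LN523, 1 on LN323 and 3 on LN521) fell within the day 2 range of all matrices. The log2 fold change was 2.66 (SE 0.84, adjusted p = 0.0149) on LN523, 3.10 (0.82, adjusted p = 0.00269) on LN323 and 1.83 (0.80, adjusted p = 0.114) on LN521 in edgeR. The LN523 call was lost in 5 of 13 alternatives: without replicate 2 of day 22 (log2 1.75, adjusted p = 0.118) or of day 2 (1.86, adjusted p = 0.14), with edgeR's filterByExpr filter (adjusted p = 0.0569) and in limma on log2(TPM + 1) and log2(TPM + 0.1) (adjusted p = 0.245 and 0.0663). The LN323 call was lost in limma on log2(TPM + 1) (adjusted p = 0.147).

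The 3 ALDH1A genes can be set side by side in TPM, which corrects for transcript length. ALDH1A1 made up 74.4% to 86.9% of the family's summed TPM at day 2, 93.5% to 99.8% at day 22 and 92.8% to 99.9% at day 32. ALDH1A3 held 9.92% to 23.2% at day 2 and at most 5.95% and 5.18% later. ALDH1A2 was at 3.94% or less at every day. The family's summed level rose from a median of 10.0 TPM at day 2 to 4735 TPM at day 22 and 3865 TPM at day 32. The largest ALDH1A3 share at days 22 and 32 was in replicate 1 on LN521, the library with the least ALDH1A1.

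**Figure D2:**
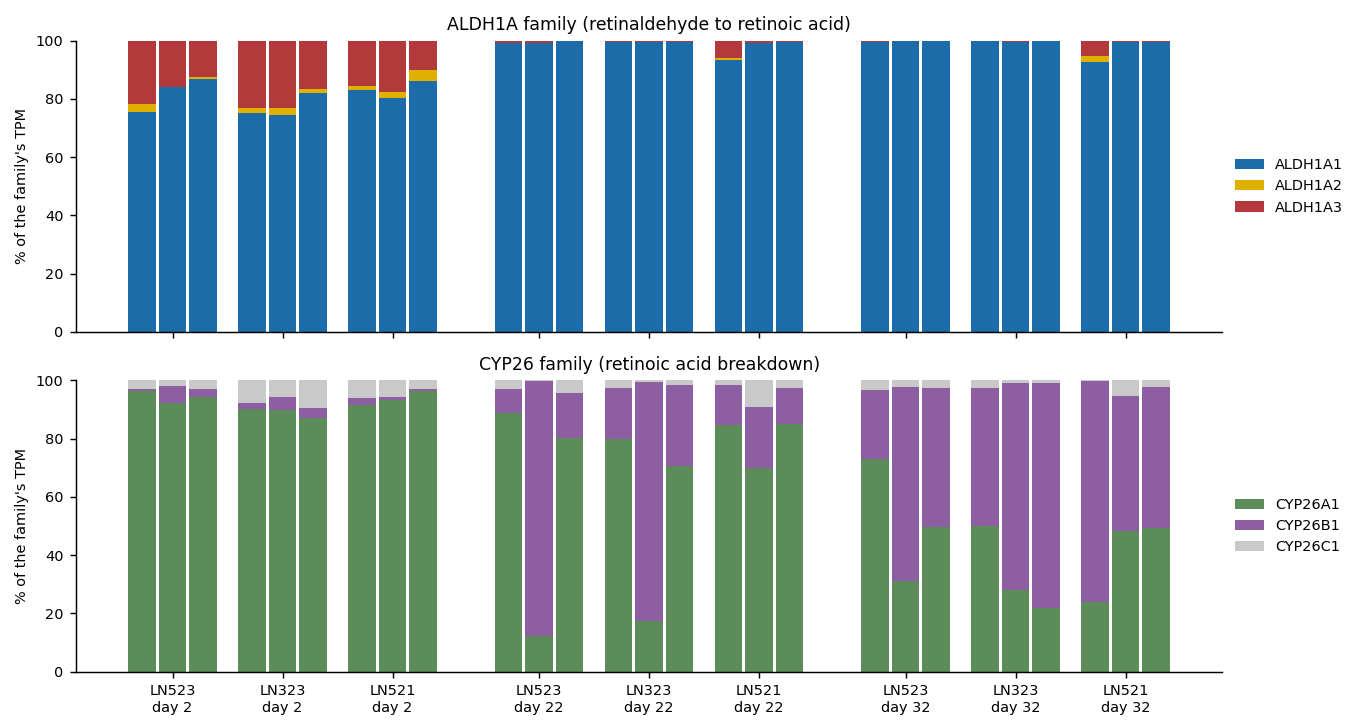
Share of each family's summed TPM (percent) held by each gene in all 27 libraries; each bar is 1 library, in the order of replicates 1 to 3 within a group. ALDH1A1 holds at least 92.8% of the ALDH1A level after day 2, and CYP26B1 takes from 8.44% to 87.4% of the CYP26 level at day 22.

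CRABP1 (chromosome 15, 78340353 to 78348225, plus strand), which binds retinoic acid in the cytoplasm, was already abundant, with 51.7 to 110 CPM at day 2. At day 22 it was at 463, 329 and 860 CPM on LN523, at 402, 752 and 787 on LN323 and at 638, 698 and 511 on LN521. The groups were apart on every matrix. The fold change was 6.16 on LN523 (log2 2.62, SE 0.28), 6.97 on LN323 (log2 2.80, 0.28) and 8.68 on LN521 (log2 3.12, 0.28), with adjusted p of 4.93e-11, 7.17e-12 and 5.05e-13 in edgeR. Its median rank by TPM was 505 at day 2, 32 at day 22 and 28 at day 32. An unnamed gene on the opposite strand overlaps 45.9% of its exonic bases.

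The breakdown enzymes differed from each other. CYP26A1 is a classical retinoic acid target, known for direct repeats that retinoic acid receptors bind in its promoter. A search for this motif, a DR5 (the half-site AGGTCA, or in its place GGGTCA, or else AGTTCA, or again GGTTCA, followed after 5 bases by another of these in the same orientation, on either strand), in windows from 250 bases before to 50 after each start site found it in 31 of 35116 RefSeq promoter windows (GRCh38.p14), or 0.0883%. Of the 9 members with a window and the genes of the retinoid and retina lists, CYP26A1 and RARB, a receptor gene, had a match. The matches, with 6 bases on each side, are given 5′ to 3′ on the gene's strand with both half-sites in capitals, because these are the letters on which that search turned.
CYP26A1, chr10:93073797-93073825, plus strand: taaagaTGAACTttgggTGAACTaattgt
RARB, chr3:25428204-25428232, plus strand: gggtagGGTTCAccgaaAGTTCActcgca
The repeat of CYP26A1 lies 90 to 74 bases before the start site and reads in the opposite direction to the gene, and that of RARB lies 53 to 37 bases before it. Each also falls in a UTR exon of longer annotated transcripts (1 of 6 for CYP26A1, 3 of 23 for RARB). The tighter repeats DR2 and DR1, with 2 and 1 bases between the half-sites, were in 0.0399% and 0.131% of the windows and in none of these genes. A match describes letters and not a bound site.

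CYP26A1 (chromosome 10, 93073475 to 93077885, plus strand) was at 24.0, 4.06 and 20.9 CPM on LN523 at day 2, at 4.19, 15.5 and 3.59 on LN323 and at 6.52, 28.3 and 37.3 on LN521. Undifferentiated cells thus held low and high replicates of this gene on every matrix. At day 22 the libraries were at 51.5, 34.4 and 43.1 CPM on LN523, at 34.0, 44.7 and 32.1 on LN323 and at 76.7, 36.8 and 53.9 on LN521. The 2 days overlapped on LN521 alone. The log2 fold change was 1.44 (SE 0.48, adjusted p = 0.0206) on LN523, 2.19 (0.49, adjusted p = 0.000392) on LN323 and 1.16 (0.48, adjusted p = 0.087) on LN521 in edgeR. The LN523 call was lost in DESeq2 (adjusted p = 0.056), with the filterByExpr filter (adjusted p = 0.0832) and without replicate 2 of day 2 (adjusted p = 0.229). An annotated gene without a symbol shares 25.3% of the exonic bases of CYP26A1 and 18.9% of those of CYP26C1 on the same strand, so reads could be divided between them.

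CYP26B1 (chromosome 2, 72129238 to 72147862, minus strand) went from near 0, between 0.14 and 1.31 CPM at day 2, to widely different levels at day 22. It was at 8.26, 409 and 13.9 CPM on LN523 and at 12.6, 352 and 21.3 on LN323, whereas on LN521 it was at 21.2, 18.5 and 13.5. Every day 22 library was above every day 2 library, and replicate 2 on LN523 and LN323 stood far above the other 7. The fold change was 116 on LN523 (log2 6.86, SE 1.06), 162 on LN323 (log2 7.34, 1.05) and 57.6 on LN521 (log2 5.85, 1.02), with adjusted p of 8.16e-07, 1.32e-07 and 1.01e-05 in edgeR. Without replicate 2 of day 22 the log2 fold change was 4.61 on LN523 (adjusted p = 2.15e-06) and 5.58 on LN323 (adjusted p = 9.56e-07 in edgeR), so the rise did not rest on that library although its size did. CYP26C1 (chromosome 10, 93060798 to 93069540, plus strand), the CYP26 gene with the lowest median TPM at days 22 and 32, was at 0.12 to 2.48 CPM at day 2 and 0.71 to 6.99 at day 22. Its log2 fold changes of 1.58, 0.89 and 1.23 on LN523, LN323 and LN521 had adjusted p of 0.074, 0.412 and 0.198 in edgeR.

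In TPM, CYP26A1 held 87.0% to 96.4% of the CYP26 family's level at day 2. At day 22 its share was 12.4% to 88.7% (median 79.8%) and that of CYP26B1 8.44% to 87.4% (median 17.5%). By day 32 the medians were 48.3% for CYP26A1 and 48.2% for CYP26B1. CYP26C1 held at most 9.54%, 9.05% and 5.48% at the 3 days. The family's summed level had medians of 19.4, 82.2 and 61.9 TPM, against 10.0, 4735 and 3865 TPM for the ALDH1A family.

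**Figure D3:**
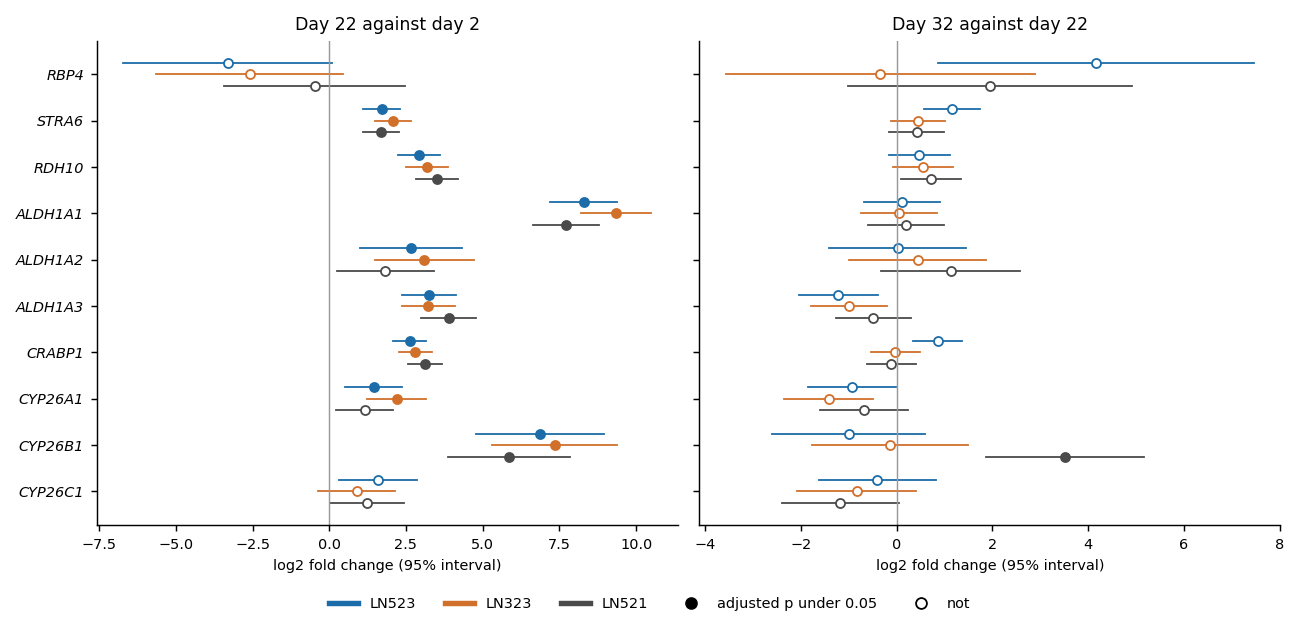
Log2 fold changes of the 10 genes (points) with approximate 95% intervals (lines) for day 22 against day 2 and day 32 against day 22, by matrix. Filled points had an adjusted p below 0.05 in edgeR. All filled points on the left lie above 0, and on the right the only filled point is CYP26B1 on LN521.

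From day 22 to day 32 few differences passed the test. This comparison shares its day 22 libraries with the one above, so they are not independent. edgeR called 0 of 10 members on LN523 (background 0.381% of genes; 4 at an unadjusted p below 0.05; 0 in DESeq2) and 0 of 10 on LN323 (background 0.0424%; 2 unadjusted; 0 in DESeq2). On LN521 it called 1 of 10 (background 0.268%; 2 unadjusted; 0 in DESeq2), which was CYP26B1. Fits of only the 2 days of a matrix called 3 of 10 on LN523 (CYP26A1, STRA6 and CRABP1; 1.34% of all genes) and 2 of 10 on LN323 (CYP26A1 and ALDH1A3; 0.962%). ALDH1A1 was at 2782, 1754 and 4444 CPM on LN523 at day 32, at 4419, 2064 and 6437 on LN323 and at 208, 1045 and 5590 on LN521. Its log2 fold changes of 0.11, 0.05 and 0.19 had 95% intervals of -0.69 to 0.90, -0.74 to 0.84 and -0.60 to 0.98.

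CYP26A1 was lower at day 32 in all 9 same-lane pairs, without passing the test. It was at 19.9, 17.9 and 29.3 CPM on LN523, at 12.6, 12.4 and 17.2 on LN323 and at 70.4, 15.3 and 20.5 on LN521. The day 22 and day 32 libraries were apart on LN523 and LN323 and overlapped on LN521, where replicate 1 was at 76.7 and 70.4 CPM. The log2 fold change was -0.94 (SE 0.47, adjusted p = 1) on LN523, -1.41 (0.47, adjusted p = 0.791) on LN323 and -0.68 (0.47, adjusted p = 0.988) on LN521 in edgeR. ALDH1A3 was also lower in 8 of 9 same-lane pairs, at 19.3, 4.53 and 21.4 CPM on LN523, 16.6, 17.3 and 13.2 on LN323 and 23.6, 9.07 and 43.6 on LN521. Its log2 fold changes were -1.21 (adjusted p = 0.462), -0.99 (adjusted p = 1) and -0.48 (adjusted p = 0.988) in edgeR.

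STRA6 and CRABP1 were higher on LN523 at day 32, again short of the threshold. STRA6 was at 167, 104 and 150 CPM there, a log2 difference of 1.15 (SE 0.30, adjusted p = 0.0656 in edgeR) from day 22, and CRABP1 was at 1051, 486 and 1429 CPM, a difference of 0.86 (0.26, adjusted p = 0.231 in edgeR). The day 22 and day 32 libraries overlapped for both. On LN323 and LN521 the differences were 0.45 and 0.42 for STRA6 and -0.03 and -0.11 for CRABP1. RDH10 differed by 0.48, 0.56 and 0.73 on LN523, LN323 and LN521 (lowest adjusted p = 0.67 in edgeR), and ALDH1A2 by 0.03, 0.44 and 1.13 (lowest adjusted p = 0.988).

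The call for CYP26B1 on LN521 rested on 1 library. At day 32 it was at 379, 24.7 and 33.6 CPM there, against 21.2, 18.5 and 13.5 at day 22. All 3 day 32 libraries lay above day 22, and replicate 1 was about as high as replicate 2 on LN523 and LN323 had been at day 22. The log2 fold change was 3.51 (SE 0.84, adjusted p = 0.0456 in edgeR) whereas the fit without replicate 1 of day 32 gave -0.20 (adjusted p = 1), a sign opposite to the levels, since the other 2 day 32 libraries lay above all 3 of day 22. It also missed the threshold without the lane block (adjusted p = 0.236), with DESeq2 (adjusted p = 0.0998), without replicate 2 or 3 of day 22 (adjusted p = 0.326 and 0.0968) and with the filterByExpr filter (adjusted p = 0.34). On LN523 CYP26B1 was at 10.9, 64.4 and 47.6 CPM at day 32 and on LN323 at 20.2, 52.9 and 103, with a 95% interval of the log2 difference from day 22 of -2.60 to 0.60 on LN523 and a difference of -0.13 (SE 0.83) on LN323.

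The second question was whether the matrix altered these genes. Few members differed between matrices by the test, and each call was lost under other settings. At day 2, CYP26A1 was called in 2 comparisons: higher on LN523 than on LN323 (1 of 10 members, background 0.233% of 38650 genes) and lower on LN323 than on LN521 (1 of 10, background 2.5%). The log2 differences were 1.34 (SE 0.29, adjusted p = 0.00277) and -1.68 (0.27, adjusted p = 3.99e-07) in edgeR. The libraries given above overlapped in both, and LN523 was lower than LN323 in the pair of lane 2. Neither SE shows this spread between replicates of CYP26A1. Both calls were lost in DESeq2 (adjusted p = 1 and 0.598) and with the filterByExpr filter (adjusted p = 1 and 0.351). The first was 0.05 (adjusted p = 1) without replicate 1 of LN523 and also missed the threshold without replicate 3 of LN523 or replicate 1 or 3 of LN323, while it was 2.31 and 2.15 without replicate 2 of LN523 and of LN323. The second stayed past the threshold without any single library, at -1.03 without replicate 3 and -2.93 without replicate 2 of LN323. Between LN523 and LN521 at day 2, edgeR called 0 of 10 (background 0.624%; 0 unadjusted; 0 in DESeq2).

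At day 22 ALDH1A1 was called higher on LN523 than on LN521 (1 of 10 members, background 0.572% of 38609 genes) and higher on LN323 than on LN521 (1 of 10, background 0.616%). The log2 differences were 1.01 (SE 0.25, adjusted p = 0.0203) and 1.64 (0.26, adjusted p = 9.21e-06) in edgeR. Within lanes the difference between LN323 and LN521 was 3.87, 1.55 and -0.05 for lanes 1, 2 and 3, so it was large in lane 1, smaller in lane 2 and near 0 in lane 3. The SE of 0.26 does not show this spread between lanes. The calls were lost in DESeq2 (adjusted p = 1 and 0.23), with the filterByExpr filter (adjusted p = 0.94 and 0.915) and without the lane block (adjusted p = 0.906 and 0.898), and each also missed the threshold without 3 of its 6 libraries in turn. LN523 against LN521 did so without replicate 1 of LN521 (log2 0.35, adjusted p = 0.529) and without replicates 1 or 3 of LN523, and was 1.98 without replicate 3 of LN521. LN323 against LN521 did so without any of the LN323 replicates (adjusted p = 0.887, 0.113 and 0.0681), and was 0.86 and 2.56 without replicates 1 and 3 of LN521, past the threshold in both. Between LN523 and LN323 at day 22, 0 of 10 members were called by edgeR (background 0.013%; 3 unadjusted; 0 in DESeq2), and 2 in a fit of only these groups (0.269% of all genes).

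At day 32 edgeR called 0 of 10 members between LN523 and LN323 (background 0% of 39377 genes; 1 unadjusted), 0 between LN523 and LN521 (background 0.0609%; 5 unadjusted) and 0 between LN323 and LN521 (background 0.117%; 2 unadjusted), and DESeq2 called 0 in each. In a fit of only LN523 and LN323, edgeR called 5 of 10 members between them (2.82% of all genes). Without replicate 1 of LN521 it called 4 for LN523 against LN521 (4.95% of all genes) and 3 for LN323 against LN521 (5.57%). CYP26B1 was among them in both, with log2 differences of 0.90 (adjusted p = 5.16e-06) and 1.48 (adjusted p = 5.76e-16) in edgeR. The libraries overlapped all the same. LN521 was left with 24.7 and 33.6 CPM, inside the range of LN523 (10.9 to 64.4 CPM) and of LN323 (20.2 to 103 CPM).

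Whether the change over time differed between matrices was tested directly. From day 2 to day 22 the rise of ALDH1A1 was larger on LN323 than on LN521 by 1.67 on the log2 scale (SE 0.28, adjusted p = 3.48e-06 in edgeR; 1 of 10 members, background 0.963%). It was larger in 3 of 3 lanes, by 3.84, 1.43 and 0.35, a spread between lanes that the SE of 0.28 does not show. Without replicate 1 or 3 of LN521 at day 22 the difference was 1.09 or 2.57, past the threshold in both. The call was lost in DESeq2 (adjusted p = 0.468), with the filterByExpr filter (adjusted p = 0.676), without the lane block (adjusted p = 0.528) and in a fit of all 27 libraries (adjusted p = 0.644). Against LN523, the changes on LN323 and LN521 gave 0 of 10 called in edgeR (background 0.0421% and 0.531%; 2 and 1 unadjusted; 0 and 0 in DESeq2). From day 22 to day 32, 0 of 10 were called for LN523 minus LN323 (background 0%; 1 unadjusted), for LN523 minus LN521 (background 0.00236%; 2 unadjusted) and for LN323 minus LN521 (background 0%; 1 unadjusted), with 0 in DESeq2 in each.

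Libraries of 1 group differed from each other in several genes at once. On LN521, ALDH1A1 was at 272, 1117 and 4170 CPM in replicates 1, 2 and 3 at day 22 and at 208, 1045 and 5590 at day 32. TBX5, a transcription factor of the dorsal retina, was at 3.79, 14.2 and 110 CPM and at 3.65, 7.63 and 55.1 in the same libraries. VAX2, a transcription factor of the ventral retina, was at 13.8, 5.83 and 0.22 CPM and at 23.7, 2.00 and 0.45. At both days the library with most ALDH1A1 had most TBX5 and least VAX2, and the library with least ALDH1A1 the reverse. TBX5 and VAX2 are 1 gene each of the dorsal and ventral lists of 6. The other genes of these lists were not set against ALDH1A1 here. ALDH1A3, though ventral in the retina, was also highest in the library with most ALDH1A1, at 35.0, 18.4 and 51.0 CPM at day 22 and 23.6, 9.07 and 43.6 at day 32. On LN523 and LN323, ALDH1A1 was at 1706 CPM or more and TBX5 at 32.0 CPM or more in all 12 libraries of these days. TBX5 was called higher on LN323 than on LN521 at day 22 (log2 1.62, SE 0.31, adjusted p = 0.000494 in edgeR) and at day 32 (log2 2.43, 0.47, adjusted p = 0.0312 in edgeR), and VAX2 lower at day 22 (log2 -2.99, 0.62, adjusted p = 0.00223 in edgeR). The libraries of TBX5 overlapped at day 22 and not at day 32. Between LN323 and LN521 at day 22 the median log2 difference was 0.94 over the dorsal list. Over the ventral list it was 0.07, with 4 of 6 genes not called, so that list as a whole did not follow VAX2. Replicate 1 on LN521 was also the library with the highest summed forebrain markers at both days. The same library had the highest summed pluripotency markers, at 381 CPM at day 22 and 55.6 at day 32 (medians 63.7 and 16.4). Its CYP26A1 was the highest of each day too, at 76.7 and 70.4 CPM. The part of cell composition in these values was not tested.

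**Figure D4:**
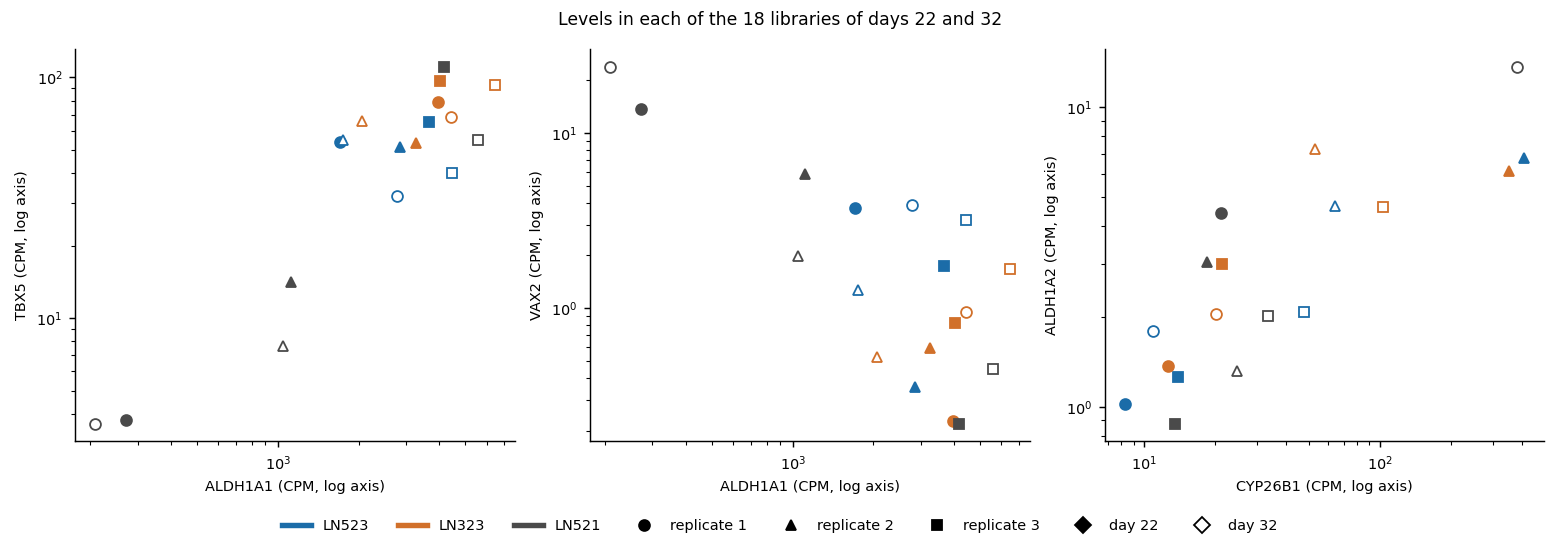
Levels in the 18 libraries of days 22 and 32 (CPM on log axes) of TBX5 and VAX2 against ALDH1A1 and of ALDH1A2 against CYP26B1; colours are matrices, shapes are replicates, filled markers are day 22 and open markers day 32. The 4 libraries with ALDH1A1 at 1117 CPM or less are all from LN521 and have TBX5 at 14.2 CPM or less, and the 3 libraries with CYP26B1 at 352 CPM or more have ALDH1A2 at 6.15 CPM or more.

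The other set of libraries was marked by CYP26B1. In replicate 2 of day 22 on LN523 and LN323 and in replicate 1 of day 32 on LN521, CYP26B1 was at 409, 352 and 379 CPM, and in the other 15 differentiated libraries between 8.26 and 103 CPM. ALDH1A2 was at 6.76, 6.15 and 13.6 CPM in these 3 libraries, the highest of each group, and RDH10 at 181, 143 and 173 CPM. Other libraries of these days reached 7.27 CPM of ALDH1A2 and 211 CPM of RDH10, so neither gene set these 3 apart. The following 3 genes of the lists were picked after their values were seen. DHRS3, a retinaldehyde reductase, was at 490, 412 and 482 CPM in these libraries and between 23.8 and 252 in the others of days 22 and 32. HIC1, a transcriptional repressor, was at 57.5, 38.8 and 87.3 CPM (0.42 to 65.3 in the others), and RARB at 134, 131 and 98.3 CPM (20.0 to 111 in the others), so these 2 overlapped where DHRS3 did not. Summed mesenchyme markers in these libraries were 2323, 1814 and 1895 CPM (range over the 18 libraries 1250 to 7628), of which the first was the highest at day 22 and the others were not the highest of their groups. Summed surface ectoderm markers were 1522, 1291 and 1321 CPM, the highest of each group. Most of such sums came from the keratins KRT8 and KRT18, with medians of 733 and 204 CPM at day 22 and 396 and 176 CPM at day 2. At day 22 TP63 had a median of 25.4 CPM, and KRT5 and KRT14 were at most 1.09 and 0.228 CPM. Summed neural crest markers were 66.6, 65.0 and 26.3 CPM. The part of cell composition in these values was not tested.

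The genes whose log2 CPM ran most like each member over the 27 libraries were, by Pearson's r, COLEC12 for ALDH1A1 (r = 0.99), IGF2-AS for ALDH1A2 (0.92), PTPN21 for ALDH1A3 (0.94), FAM167A for CRABP1 (0.98), LPAR1 for RDH10 (0.98), PNMA2 for STRA6 (0.97), EPHB2 for CYP26B1 (0.97), CRABP2 for CYP26A1 (0.81) and REEP6 for CYP26C1 (0.74). All points include the step from day 2 to day 22 that most members share. Within the 18 libraries of days 22 and 32 the nearest were PRKG1 for ALDH1A1 (0.95), IGF2-AS for ALDH1A2 (0.94), TMEFF2 for ALDH1A3 (0.82), PSMC4 for CYP26B1 (0.96), ADGRD1 for CYP26A1 (0.83), MGST1 for CYP26C1 (0.83), LPAR1 for RDH10 (0.91), PTPRO for STRA6 (0.91) and BMERB1 for CRABP1 (0.93). Libraries of a group share their culture conditions and are not independent points.

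Of 14 carriers and esterification genes tested, 4 were called higher and 2 lower at day 22 on LN523, 5 and 2 on LN323, and 3 and 2 on LN521. Over all genes 11.5% were called higher and 10.2% lower on LN523, 11.8% and 10.9% on LN323, and 10.8% and 8.09% on LN521, which is the background for these lists too. On LN523 LRAT, which esterifies retinol for storage, fell by 3.80 on the log2 scale with overlapping libraries (adjusted p = 0.000645 in edgeR), and BCO2, a carotenoid-cleaving enzyme, rose by 3.55 (adjusted p = 1.52e-06 in edgeR). CRABP2, which carries retinoic acid to the nucleus, and was the gene most like CYP26A1 above, was at 114 ± 61.3 CPM at day 2 and 274 ± 99.1 CPM at day 22 (SD, n = 3 per group) and rose by 1.23 (adjusted p = 0.0213 in edgeR). At day 32 on LN523, RBP3, the retinoid carrier of the photoreceptor matrix, was higher than at day 22 by 5.38 on the log2 scale (adjusted p = 0.00011 in edgeR). The list's median log2 fold change at day 22 was 0.91 on LN523, against 0.02 over all genes.

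Of 15 other retinol and retinaldehyde dehydrogenases and reductases 14 were in the table, of which 1 was called higher and 3 lower at day 22 on LN523, 2 and 3 on LN323, and 1 and 3 on LN521. RDH11 and ADH5 fell by 0.85 and 1.03 on the log2 scale on LN523 (adjusted p = 0.000435 and 3.97e-06 in edgeR), and RDH12, a photoreceptor retinal reductase, by 4.15 from a mean of 1.28 CPM (adjusted p = 0.00207 in edgeR). The median of the list was 0.01 on LN523, -0.42 on LN323 and -0.33 on LN521. On LN523 the 1 of 14 called higher and 3 of 14 called lower stand beside 11.5% and 10.2% of all genes. A difference of the list from that background was not tested.

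Of 10 receptors and corepressors, 5 were called higher and 2 lower on LN523, 5 and 2 on LN323, and 6 and 2 on LN521. RARB rose from 0.67 ± 0.24 to 58.4 ± 65.4 CPM on LN523 (log2 6.09, adjusted p = 5.00e-15 in edgeR), and the corepressor NRIP1 by 4.06 (adjusted p = 1.17e-18 in edgeR). RXRG was at 0.00 CPM in the 3 day 2 libraries on LN523 and at 5.46, 7.56 and 40.4 CPM at day 22. It was the receptor gene called between matrices at day 22, with log2 differences of -2.07 for LN523 against LN323 (adjusted p = 1.43e-06 in edgeR) and 2.78 for LN323 against LN521 (adjusted p = 3.87e-11 in edgeR), and its libraries overlapped in both.

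Of 15 genes known to respond to retinoic acid, among them RARB and NRIP1 of the list above, 9 were called higher and 1 lower on LN523 at day 22, 10 and 0 on LN323, and 8 and 1 on LN521. The list's median log2 fold change was 3.81, 3.89 and 3.16. MEIS1, a homeobox gene, rose by 8.48 on LN523 (adjusted p = 5.45e-31 in edgeR). HOXB1 was lower on LN523 than on LN521 at day 22 (log2 -3.51, adjusted p = 5.77e-05 in edgeR), with 44.7, 7.86 and 0.82 CPM in the LN521 replicates against 0.93, 1.57 and 0.74, so replicate 1 on LN521 again stood apart. TGM2, a transglutaminase, was higher on LN523 than on LN521 (log2 0.97, adjusted p = 0.0041 in edgeR) and on LN323 than on LN521 (log2 0.96, adjusted p = 0.00545 in edgeR). No gene of this list was called from day 22 to day 32 on any matrix.

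Most genes of both retina axis lists rose at day 22. All 6 dorsal genes were called higher at day 22 on each matrix, and of 6 ventral genes 6 on LN523, 5 on LN323 and 6 on LN521. The dorsal gene TBX2 went from 1.04 ± 0.83 to 589 ± 251 CPM on LN523, and the ventral gene EPHB3, an ephrin receptor, from 2.13 to 98.7 CPM. Between LN323 and LN521 at day 22, 4 of 6 dorsal genes were called higher and 2 of 6 ventral genes lower, where 0.616% of all genes were called in either direction. EFNB2, an ephrin ligand, and BAMBI, a BMP pathway gene, were among the dorsal genes (log2 1.42 and 0.91, adjusted p = 1.13e-06 and 0.00262 in edgeR), and their libraries did not overlap. VAX1 was at 0.00 CPM on LN323 in all 3 libraries and at a mean of 2.16 CPM on LN521.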

How the data were processed

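Total RNA libraries from 27 samples were sequenced as stranded pairs. The labels give 10 samples to a lane, and 9 of the 27 were on each of lanes 1, 2 and 3. Per the submitters' processing notes, the authors trimmed reads with cutadapt, aligned them to GRCh38 with STAR 2.5.2b and counted them with featureCounts 1.5.1. The strand setting of the counting is not given in the sources used here. The deposited table of raw counts per gene was used for every test, and the deposited table of TPM, which the authors scaled for transcript length, only to compare genes with each other and in alternatives. Total counts per library were 25620624 to 47340990.

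Members were found by Ensembl identifier. The members, the lists and the tests were chosen with earlier results of these data known. Genes with more than 1 count summed over the libraries fitted were tested in edgeR 4.0.16 (R 4.3.3) with TMM factors, a quasi-likelihood test and the lane as a block, as the study's methods model lane, with Benjamini-Hochberg adjustment over all genes. Comparisons in time fitted all 27 libraries, those of matrices the 9 of 1 day, and differences in change the 18 of both days. In all, 21 comparisons were made. Replicate numbers are lane numbers in the labels. Deviations from group means over 16366 genes correlated between same-lane libraries by -0.65 to 0.80 within a day (median 0.19, 17 of 27 pairs over 0.1) and by -0.26 to 0.59 between days of a matrix (9 of 18 over 0.1).

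Pathway genes were named by rule: up to 3 per list with the largest log2 fold change among those called on LN523 in each time comparison (and a group mean no lower than 1 CPM), and up to 10 called between matrices at day 22 or day 32. Likeness was Pearson's r of log2(CPM + 0.5), among genes reaching the same minimum. Alternatives were DESeq2 1.42.0, limma 3.58.1 on log2(TPM + 1) and log2(TPM + 0.1), RLE factors, edgeR's filterByExpr, no lane block, other sets of libraries in the fit, and leaving out each library. Scripts were tested on simulated data, with 100 genes changed by 1 and 100 by 2 on the log2 scale. For LN523 against LN521 at day 32, the main test called 29% and 87% of these, and 29 unchanged genes. For LN523 at day 22 against day 2 it called 33% and 83%, and 58 unchanged genes. Many changes of 1 on the log2 scale were thus missed, and some calls were false. Gene models were those of GENCODE 44. Some genes that this rule names are not reported here.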

Additional observations from a re-analysis of the deposited data

Results flagged for a closer look

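A difference between matrices in the change over time was found for 1 member. The rise of ALDH1A1 from day 2 to day 22 was larger on LN323 than on LN521 by 1.67 on the log2 scale (SE 0.28, adjusted p = 3.48e-06 in edgeR), in the test of the difference itself. On LN521 the day 22 libraries were at 272, 1117 and 4170 CPM, and on LN323 at 3973, 3263 and 4035 CPM. The difference was larger than 0 in 3 of 3 lanes, with a spread between lanes that the SE does not show. It passed the threshold in 13 of 19 alternatives, which were the refits without 1 library and the fit with RLE factors. The call was lost in DESeq2, with the filterByExpr filter, in both limma fits, without the lane block and in the fit of all 27 libraries.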

How the results depend on the processing

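Of 28 calls of members, 19 held under every alternative run. Where the fit held only the groups compared, the counts of members called were 3 and 2 for day 32 against day 22 on LN523 and LN323, 0 for LN523 against LN323 at day 2, 2, 0 and 2 for LN523 against LN323, LN523 against LN521 and LN323 against LN521 at day 22, and 5 for LN523 against LN323 at day 32. The shares of all genes called in these fits were 1.34%, 0.962%, 0%, 0.269%, 0%, 0.77% and 2.82%. DESeq2, filterByExpr and both limma fits each called 0 for day 32 against day 22 on LN521, for LN523 against LN323 and LN323 against LN521 at day 2, for LN523 against LN521 and LN323 against LN521 at day 22, and for the change from day 2 to day 22 on LN323 minus LN521. RLE factors called 0 for day 32 against day 22 on LN521 and for LN523 against LN521 at day 22, and the fit of all 27 libraries called 0 for that difference in change. The cause was not tested.

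Without the replicate block the count was 0 for day 32 against day 22 on LN521, for LN523 against LN521 and LN323 against LN521 at day 22, and for the change on LN323 minus LN521 from day 2 to day 22. It stayed within 1.5 times in the other 17 comparisons.

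Leaving out 1 library at a time gave 6 to 9, 8 to 8 and 6 to 7 members called for day 22 against day 2 on LN523, LN323 and LN521, and 0 to 2 and 0 to 1 for day 32 against day 22 on LN523 and LN521. It gave 0 to 1 for LN523 against LN323 at day 2, 0 to 4, 0 to 4 and 0 to 3 for the matrices at day 22, and 0 to 4 and 0 to 3 for LN523 and LN323 against LN521 at day 32. For the change from day 2 to day 22 it gave 0 to 2, 0 to 1 and 1 to 3. CYP26B1 on LN521 from day 22 to day 32 ranged from -0.20 to 4.58 on the log2 scale. Without replicate 1 of LN521 at day 32 the fitted sign turned for CYP26B1 in that comparison (-0.20), against the levels of the remaining libraries, which were higher at day 32. It also turned for CYP26B1 on LN523 and LN323 against LN521 (0.90 and 1.48) and for ALDH1A2 on LN323 against LN521 (1.66). The lowest values of these over all single libraries were -3.22, -2.61 and -1.09.

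With 3 replicates a group, the spread within LN521 limits what the matrix comparisons can show, and RBP4 is too scarce to compare.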
